A study of Mus musculus with 10 samples.

Results

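The lipid droplet and lipolysis genes followed here are 10 genes listed by symbol: the perilipins Plin2, Plin3, Plin4 and Plin5, the lipolysis genes Pnpla2, Abhd5, Lipe and Mgll, and the triglyceride synthesis genes Dgat1 and Dgat2. They are 10 of the 21098 genes in a count table of gastrocnemius (GAS), a calf muscle made mostly of fast fibers. The mice were male, wild-type C57BL/6J animals with diet-induced obesity (DIO), named C57BL/6JBomTac in the study's methods. All received the high fat diet D12492i from 9 weeks of age, for 9 weeks before treatment and during it. The submitters give the age at the end as 30 weeks, which is less than these periods add up to. The control group (CTRL, vehicle) received 0.9% saline subcutaneously once a week for 14 weeks. The treated group received the anti-miR-22 antisense oligonucleotide (ASO, labelled RES-010) at 10 mg/kg on the same schedule, and each group has 5 libraries. The ASO acts on the whole animal and the RNA is of whole muscle, so values from muscle fibers, fat cells and other cells are mixed. No library of lean mice was analysed here, and the study had no control ASO of scrambled sequence. At the first weighing that the study lists, most CTRL mice were lighter than every ASO mouse. The part of this difference in weight was not tested.

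Fat is stored in a cell as triglyceride inside a lipid droplet, whose surface carries perilipins. Lipolysis takes the triglyceride apart in order: adipose triglyceride lipase (ATGL, encoded by Pnpla2) with its coactivator CGI-58 (Abhd5) removes the first fatty acid, hormone-sensitive lipase (Lipe) removes the next from diacylglycerol, and monoglyceride lipase (Mgll) removes the last. The acyltransferases DGAT1 and DGAT2 run the final step in the other direction and make triglyceride from diacylglycerol. In muscle fibers this cycle feeds fatty acids to mitochondria, and in the fat cells that lie between fibers the same genes serve long-term storage. In these mice the study asked whether inhibition of miR-22 benefits muscle in obesity, and sequenced GAS to find the pathways that respond.

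The seed of the targeted miRNA and its matches in the members are shown first because they are the sequences a direct effect of the ASO would involve. In the mature mouse miR-22-3p (RefSeq, chromosome 11 of GRCm38.p6), the capitals mark the seed, bases 2 to 8. In the matches, read on the gene's strand of GRCm39, capitals mark the letters that pair with the seed.
miR-22-3p: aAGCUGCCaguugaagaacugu
Plin2: gcgtgtgcttgGGCAGCTtgaggtgaggt
Plin2, hexamer: agcttagaaaaGCAGCTtcttagaacca
Abhd5, hexamer: gactggactctGCAGCTttccacattta
The heptamer GGCAGCT, sought on the transcript's strand only, was in the 3′UTR of the canonical transcript of 1 of the 10 members, Plin2 (chr4:86574875-86574881, minus strand). Over the 7781 tested genes with an annotated 3′UTR, 17.7% hold it. The hexamer GCAGCT, which lies inside the heptamer, was in 3 of the 10 members (Plin2, Plin4 and Abhd5) against 43.3% of those genes. In Abhd5 it is at chr9:122208759-122208764, plus strand. Heptamers of Dgat2 and Pnpla2 lie only in 3′UTRs of other transcripts, outside the counted segments. A match of letters is a description and does not show binding.

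Library totals were between 1606909 and 2116720 counts in CTRL and between 2239186 and 2632560 in ASO, so each ASO library was deeper than each CTRL library. The authors counted read pairs on the last 500 bp of annotated 3′UTRs, one segment per transcript, and many of those segments lie far upstream of the gene's last one. In 1570 genes with counts on both kinds of segment, the log2 ratio of distal counts (last segment) to upstream counts (1000 bp or farther away) had a median of −0.57 to 0.43 in CTRL libraries and 1.17 to 1.70 in ASO libraries, without overlap. CTRL replicate 3 stood apart through fat cell and macrophage transcripts, whose values are given below. Among ASO libraries replicate 4 was the farthest from the others, with a chi-square per degree of freedom of 23.2 to 27.6 in pairs with it and 8.14 to 19.8 in the other ASO pairs. Skeletal muscle genes fit the labelled tissue: Acta1, skeletal actin, was at 25147 to 48751 CPM (counts relative to the library size, which was scaled by TMM) in CTRL and 53966 to 67989 in ASO. The muscle genes Mb, Mylpf, Tnnt3, Aldoa and Pygm are at 0 counts, so a 0 here is no evidence that the RNA was absent.

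Of the 10 members, 7 passed the filter on low counts and were tested: Plin2, Pnpla2, Abhd5, Lipe, Mgll, Dgat1 and Dgat2. One of them fell in ASO at an adjusted p under 0.05 (quasi-likelihood test of edgeR, adjusted after Benjamini-Hochberg over 7819 features), none rose, and 6 did not pass. The member that fell was Abhd5. Over all tested features, 17.5% were called lower and 11.7% higher. The 7 log2 fold changes were all below 0, with a median of −0.91 against −0.03 over all features, and in each of the 7 genes CTRL replicate 3 had the highest level of the 10 libraries. Without that library the median was −0.16 against 0.01 over all features, and 0 of the 7 were called, where 26.4% of features were. The levels of the groups overlapped in each of the 7 genes, while 21.4% of all tested features had no overlap. The plot of levels by library shows this.

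**Figure D1:**
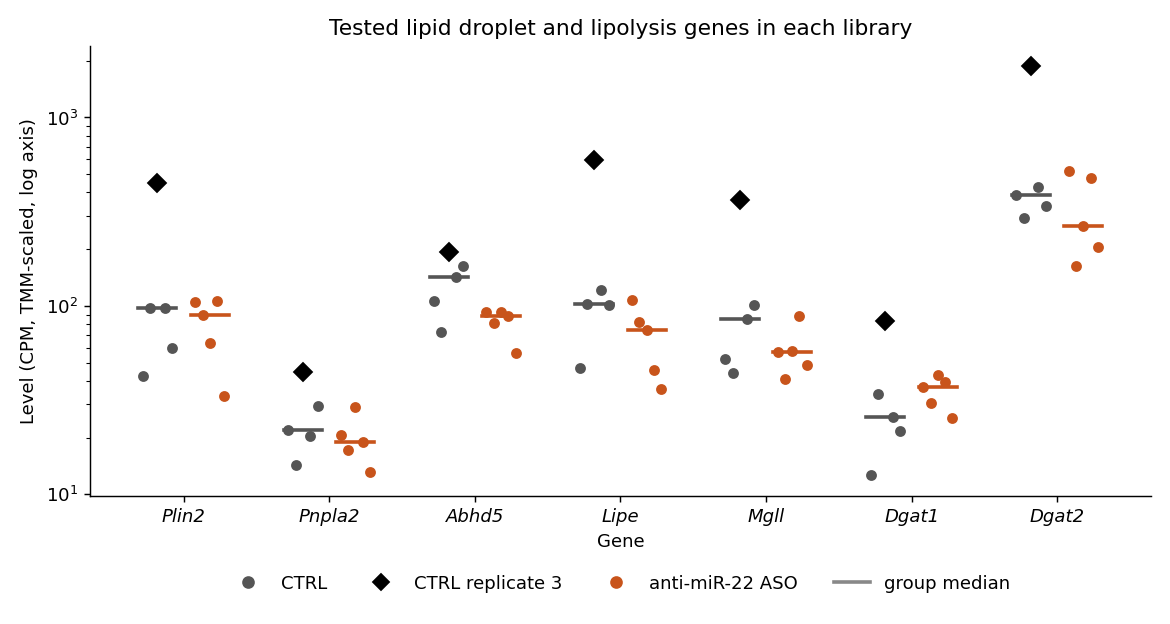
Level of each tested member in each library, in CPM on a log axis, with a line at the group median. CTRL replicate 3, the diamond, is the highest point of each gene, from 1.56 times the median of the other CTRL libraries in Abhd5 to 5.83 times in Lipe, and the remaining CTRL and ASO points overlap.

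Among the perilipins, 1 of the 4 could be measured. Plin2, the perilipin found on droplets of most cell types, was at 42.6, 97.2, 448, 97.2 and 59.6 CPM in CTRL replicates 1 to 5. In ASO replicates 1 to 5 it was at 105, 89.35, 63.4, 106 and 33.2 CPM. The CTRL values other than that of replicate 3 lie within the range of the ASO values. The log2 fold change was −0.91 (SE 0.57, adjusted p = 0.252, exact permutation p = 0.556, two-sided). It was 0.10 (SE 0.33, adjusted p = 0.858) without CTRL replicate 3, so its sign turned. All 2398 Plin2 counts lie on its 3′UTR segment of 468 bp (chr4:86574802-86575269), which holds the heptamer printed above.

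Plin3, a perilipin that moves between cytosol and droplets, had 1 to 7 counts in each library, 33 in all, and was not tested. Its only segment, of 500 bp at chr17:56584476-56584975, overlaps no other segment. Plin4, which coats droplets of fat cells and muscle, had 0 counts in all 10 libraries. Its 2 segments have the same coordinates (chr17:56407591-56408090) and so no base of their own. Plin5, the perilipin of oxidative tissues that ties droplets to mitochondria, also had 0 counts, and its segments are nested (chr17:56418601-56419028 and chr17:56418607-56419028), with 6 bp that only 1 of them holds. In the whole table, 18030 segments have no base outside other segments of their strand, and together they hold 9190 counts. A count of 0 would allow a level of up to 1.24 to 1.76 CPM, depending on the scaled size of the library and taken as 3 counts, but this limit covers reads that could be given to a segment and says nothing of Plin4 and Plin5 RNA that could not.

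The lipolysis genes start with Pnpla2, the enzyme of the first step. It was at 21.99, 14.3, 44.6, 20.5 and 29.5 CPM in CTRL and at 20.6, 17.3, 28.95, 19.05 and 13.1 CPM in ASO, in order of replicate. All ASO values but that of replicate 5 lie inside the CTRL range. The log2 fold change was −0.40 (SE 0.30, adjusted p = 0.339, exact permutation p = 0.333), and −0.12 (SE 0.26, adjusted p = 0.77) without CTRL replicate 3. Its depth is the lowest of the 7, 484 counts in all. Of these, 87.4% lie on a segment of 500 bp (chr7:141039506-141040005) of which only 11 bp lie outside other Pnpla2 segments. How read pairs on the shared bases were counted was not tested.

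Abhd5, the coactivator of ATGL, was at 106, 73.1, 193, 142 and 163 CPM in CTRL replicates 1 to 5. In ASO it was at 92.9, 80.9, 93.15, 88.6 and 56.15 CPM. Of the CTRL libraries 4 lie above every ASO library, and replicate 2 lies inside the ASO range. The means were 136 ± 47.1 (SD, n = 5) and 82.4 ± 15.5 CPM, with a log2 fold change of −0.72 (SE 0.24, edgeR adjusted p = 0.0406). The exact permutation test of this gene alone gave p = 0.0635, where 0.00794 is the smallest p it can give. The call rests on the set of libraries: with 1 library left out, the adjusted p was between 0.0085 and 0.102, and it stayed past the threshold only without CTRL replicate 1 or CTRL replicate 2. Leaving out CTRL replicate 3 gave −0.55 (SE 0.23, adjusted p = 0.0918). It was below 0 in every setting that gave it a value, which the most distal segment alone did not.

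Lipe, hormone-sensitive lipase, was at 46.8, 102, 591, 122 and 101 CPM in CTRL and 107, 81.8, 74.3, 45.6 and 36.0 CPM in ASO. CTRL replicate 3 is far above every other library, and the other CTRL values lie from 46.8 to 122. The difference was −1.48 on the log2 scale (SE 0.59, adjusted p = 0.0754, exact permutation p = 0.159). It was −0.43 (SE 0.32, adjusted p = 0.359) without CTRL replicate 3 and −1.73 (adjusted p = 0.0313) without CTRL replicate 1, the CTRL library with the lowest level.

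Mgll, the enzyme of the last step, was at 52.4, 43.96, 363, 84.9 and 101 CPM in CTRL and 57.0, 40.9, 57.9, 88.2 and 48.7 CPM in ASO. Apart from CTRL replicate 3 the groups cover nearly the same range. On the log2 scale the change was −1.14 (SE 0.51, adjusted p = 0.108, exact permutation p = 0.262), and −0.26 (SE 0.27, adjusted p = 0.509) without CTRL replicate 3.

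Of the synthesis enzymes, Dgat1 was at 12.6, 34.2, 82.8, 25.8 and 21.7 CPM in CTRL and 36.9, 30.3, 43.2, 39.35 and 25.3 CPM in ASO. Of the ASO libraries 3 lie above the CTRL values other than that of replicate 3, and replicates 2 and 5 lie among them. The change was −0.02 on the log2 scale (SE 0.40, adjusted p = 0.975, exact permutation p = 0.603). It became 0.57 (SE 0.26, adjusted p = 0.133) without CTRL replicate 3, the largest positive change of the 7 in that fit. Dgat1 is counted on 1 segment, the 221 bp of its 3′UTR (chr15:76386215-76386435).

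Dgat2 had the most counts of the members, 10309 in all. It was at 389, 293, 1867.5, 429 and 341 CPM in CTRL and 519, 162, 266, 475.5 and 205 CPM in ASO. The ASO libraries spread from below to above the CTRL libraries other than replicate 3. A log2 fold change of −1.03 was fitted (SE 0.52, adjusted p = 0.158, exact permutation p = 0.246), and −0.16 (SE 0.31, adjusted p = 0.74) without CTRL replicate 3. The means were 664 ± 675 (SD, n = 5) CPM in CTRL, 363 ± 58.8 (SD, n = 4) without replicate 3, and 326 ± 162 (SD, n = 5) in ASO.

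**Figure D2:**
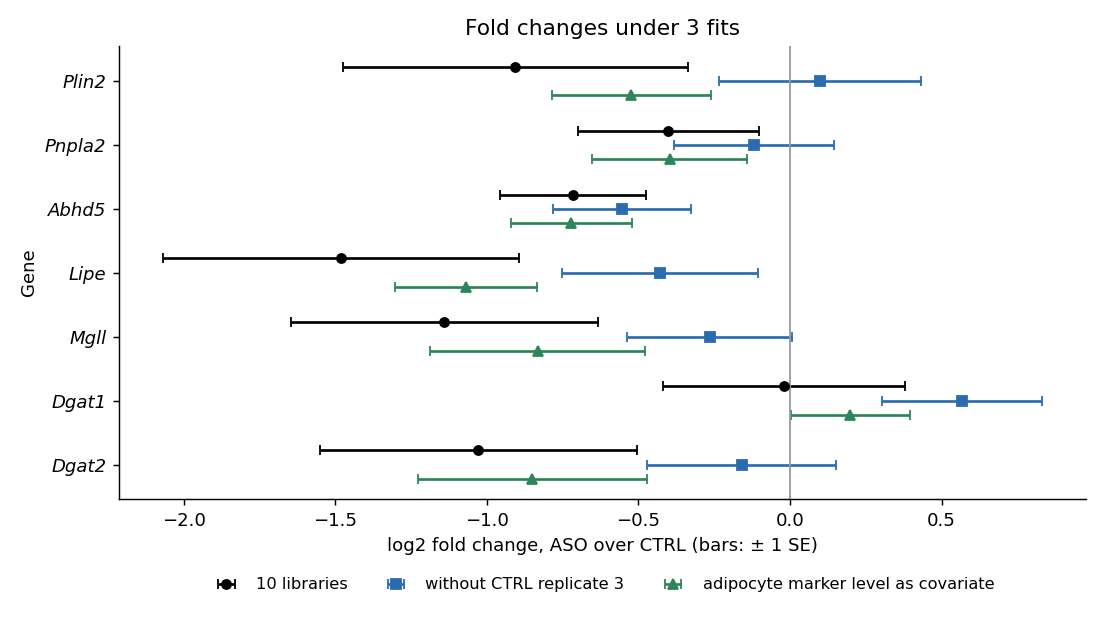
Log2 fold change of ASO over CTRL for each tested member with bars of 1 SE, from all 10 libraries, without CTRL replicate 3, and with the adipocyte marker level of each library as a covariate. Without CTRL replicate 3 the changes of Plin2, Lipe, Mgll and Dgat2 move toward 0, from −0.91, −1.48, −1.14 and −1.03 to 0.10, −0.43, −0.26 and −0.16, while that of Abhd5 moves from −0.72 to −0.55.

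Fat cells express most of these genes, so the adipocyte markers of each library are given beside them. Of 12 markers 10 were tested, and none of the 10 was called between the groups. Their median difference on the log2 scale was −0.71, and 0.41 without CTRL replicate 3. Of markers named after their values were seen, Adrb3 was then called higher (adjusted p = 0.0216), and Cidec was called lower without CTRL replicate 1 (−2.87, adjusted p = 0.0265). Cfd had 3 counts in all and Pparg is at 0. The summed level of the list was 907 to 2518 CPM in 4 CTRL libraries, 14408 CPM in CTRL replicate 3, and 804 to 4093 CPM in ASO. Adipoq, encoding adiponectin, was at 1599 CPM in CTRL replicate 3, at 2.81 to 319 CPM in the other CTRL libraries and at 18.7 to 447 CPM in ASO. Fabp4, the fatty acid carrier of fat cells, was at 8700 CPM in CTRL replicate 3 and at 829 to 1640 CPM in the other CTRL libraries. Lep, leptin, was at 1815 CPM there and at 1.87 to 340 CPM in the others of its group. CTRL replicate 1 had the lowest Adipoq level of the 10 libraries, and ASO replicate 5 the lowest in ASO. In bulk RNA, fewer cells of a type and less RNA per cell cannot be told apart.

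The members were also read against that marker level, taken as the mean log2(CPM + 1) of the 10 tested markers (2.73 to 8.84 in CTRL, 3.98 to 7.18 in ASO). Slopes of different members were not tested against each other. In a fit with this level as a covariate, chosen after seeing the data, Lipe rose by 0.57 on the log2 scale per unit (SE 0.07, adjusted p = 0.000212), Plin2 by 0.54 (SE 0.08, adjusted p = 0.000981) and Dgat1 by 0.39 (SE 0.06, adjusted p = 0.00203). These are 3 of the 7, where 3.21% of all tested features rose with it. The slopes of Mgll (0.37, adjusted p = 0.0679), Dgat2 (0.35, adjusted p = 0.0975), Pnpla2 (0.18, adjusted p = 0.308) and Abhd5 (0.15, adjusted p = 0.28) did not pass. When CTRL replicate 3 was left out, the slope passed in Lipe alone, at 0.40 (SE 0.07, adjusted p = 0.0246), against 0.37 (SE 0.09, adjusted p = 0.17) in Plin2, and 0.831% of all features rose.

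With the marker level taken as a covariate, 2 of the 7 members were lower in ASO, Lipe at −1.07 (SE 0.23, adjusted p = 0.00447) and Abhd5 at −0.72 (SE 0.20, adjusted p = 0.0158), where 18.6% of all features were called lower. Of the 10 markers behind the covariate, 2 were themselves called higher and 1 lower in this fit. Without CTRL replicate 3 these were 1 higher and 2 lower. The covariate thus did not make each marker equal between the groups. In the covariate fit with CTRL replicate 3 left out, Lipe was at −0.74 (SE 0.19, adjusted p = 0.0145) and Abhd5 at −0.67 (SE 0.23, adjusted p = 0.0559). Dgat2 was at −0.85 (adjusted p = 0.101), Mgll at −0.83 (adjusted p = 0.0902) and Plin2 at −0.52 (adjusted p = 0.144) with all libraries, and none of the 3 passed. The change of Lipe was thus below 0 in each fit but past the threshold only in those with the covariate and in that without CTRL replicate 1. Of the Lipe counts 99.3% lie far upstream of the last segment, a limit on these calls that is taken up below. Whether fat between the fibers has a part in the changes of the members was not tested beyond these values.

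**Figure D3:**
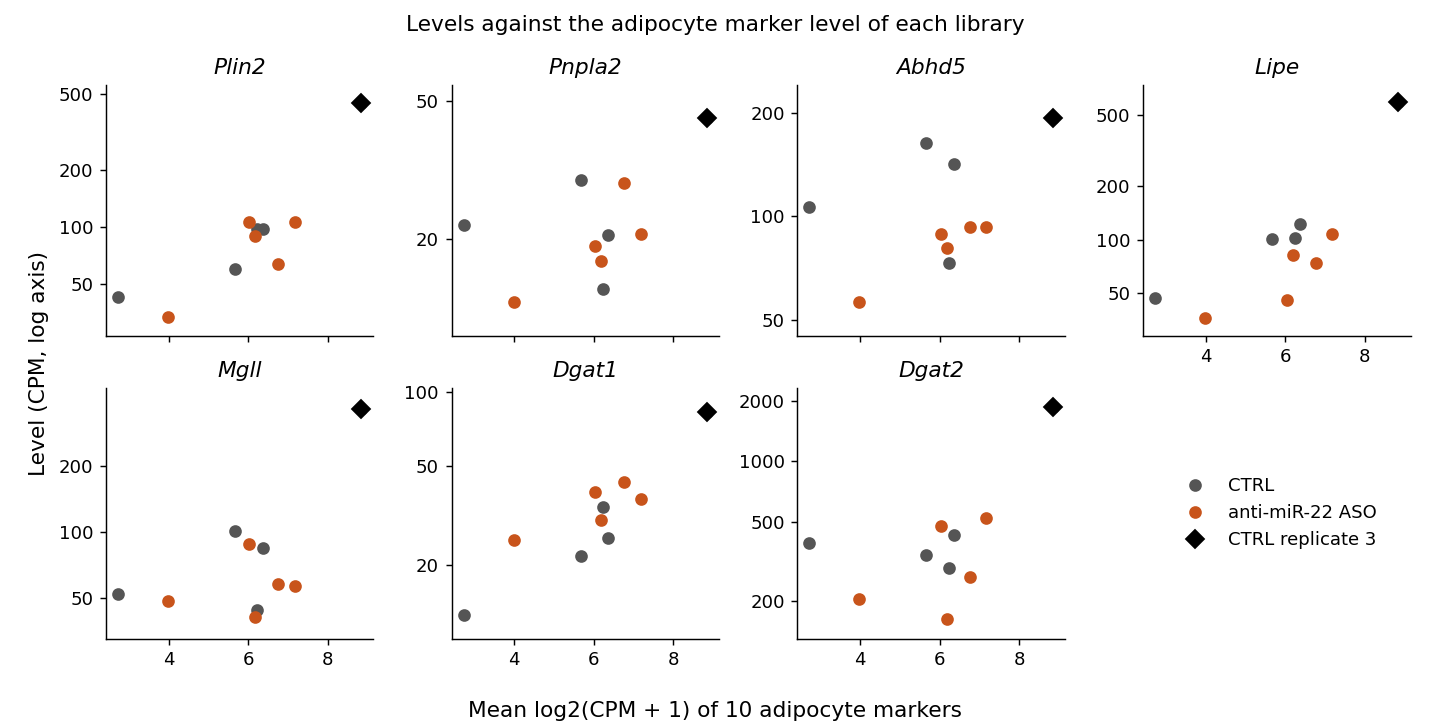
Level of each tested member in CPM on a log axis against the mean log2(CPM + 1) of 10 adipocyte markers, one point per library. Lipe, Plin2 and Dgat1 rise along the axis with slopes of 0.57, 0.54 and 0.39 on the log2 scale.

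The counted segments of a gene did not change alike. For Dgat2, 82.3% of counts are in the 3′UTR (chr7:98802865-98803364, minus strand), where the log2 fold change was −0.62 (SE 0.50, adjusted p = 0.344 in a fit of each segment, added after seeing the data) and 0.22 (SE 0.31, adjusted p = 0.602) without CTRL replicate 3. Its other counted segment (chr7:98808040-98808539) lies 5175 bp upstream and belongs to a transcript annotated for nonsense-mediated decay, with 205 bp in a coding exon and 295 bp in an intron of the canonical transcript. There CTRL replicates 1 to 5 had 79.6, 53.7, 505, 104 and 107.5 CPM, and the ASO libraries had 23.0, 10.1, 3.36, 18.6 and 3.27 CPM, without overlap. The log2 fold change of this segment was −3.83 (SE 0.70, adjusted p = 0.000921), and −2.84 (SE 0.46, adjusted p = 0.000569) without CTRL replicate 3. It held 18.3% to 31.5% of the Dgat2 counts in CTRL libraries and 1.26% to 6.23% in ASO libraries (exact permutation p = 0.00794, the smallest the design can give, for a pattern noticed in the same data). The annotation for nonsense-mediated decay is not particular to Dgat2. It also holds for every Abhd5 segment with counts and for the main segments of Lipe and Pnpla2. The Mgll segments at chr6:88802357-88802856 and chr6:88799866-88800365 carry it as well.

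Abhd5 has no count at its 3′ end, where 2 segments share the coordinates chr9:122210090-122210589. All of its counts lie 1699 bp or more upstream. The segment at chr9:122208391-122208890, with 74.8% of the counts and 87 bp of coding exon, 226 bp of 3′UTR and 187 bp of intron of the canonical transcript, had a log2 fold change of −0.47 (SE 0.25, adjusted p = 0.146). That at chr9:122206498-122206997, 3592 bp upstream and mostly intron (426 bp), had −1.33 (SE 0.33, adjusted p = 0.00647), and −1.16 (SE 0.33, adjusted p = 0.0164) without CTRL replicate 3. On that segment ASO replicates 1 and 2, at 22.04 and 21.9 CPM, lay above CTRL replicate 2, at 19.4 CPM. The share of Abhd5 counts on it was 29.4% ± 2.02 in CTRL and 19.2% ± 6.88 in ASO (SD, n = 5 each). The exact permutation p was 0.0159, again for a pattern noticed in the same data.

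Mgll was counted on 3 segments. That at chr6:88802759-88802972, in the 3′UTR, had a log2 fold change of −0.42 (SE 0.52, adjusted p = 0.539), the next upstream at chr6:88802357-88802856 had −1.02 (SE 0.45, adjusted p = 0.0831), and the farthest upstream at chr6:88799866-88800365, with 307 bp of intron, had −1.95 (SE 0.59, adjusted p = 0.0185). With CTRL replicate 3 left out, the last was at −0.98 (SE 0.38, adjusted p = 0.0598) and the first at 0.51 (SE 0.32, adjusted p = 0.228). The farthest segment held 34.5% to 49.2% of the Mgll counts in CTRL and 17.4% to 31.0% in ASO. The exact permutation p was 0.00794, also for a pattern noticed in the same data. For Lipe, 99.3% of counts come from chr7:25082578-25083012, which is 3626 bp upstream of the last segment, with 310 bp in a coding exon and 125 bp in an intron. Its 3′UTR segments, which overlap each other, hold nearly none.

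Such differences between near and far segments were common in the table. Of segments at least 1000 bp upstream, 53.7% were called lower in ASO, against 4.38% of the most distal segments. Of genes with at least 90% of their counts that far upstream, to which Abhd5, Lipe and Mgll belong, 40.8% were called lower. The only member called thus lies in a class of genes called lower far more often than the 17.5% of all features. The shift between distal and upstream segments goes with the groups in every library. Its part in the changes of Abhd5, Lipe and Mgll and the effect of the ASO therefore cannot be told apart here. Plin2 and Dgat1, counted only on the 3′UTR of the canonical transcript, and the 3′UTR segment of Dgat2 were not called between the groups in any fit run.

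**Figure D4:**
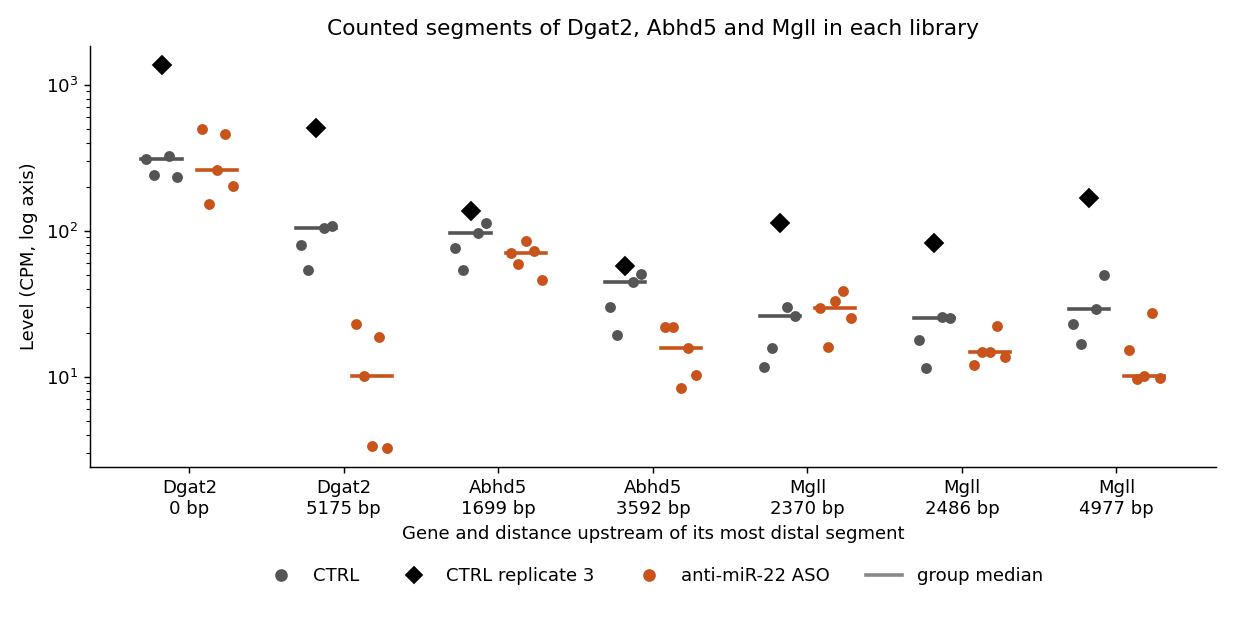
Level in CPM on a log axis of each tested segment of Dgat2, Abhd5 and Mgll in each library, with its distance in bp upstream of the most distal annotated segment of the gene and a line at the group median. On the Dgat2 segment 5175 bp upstream each ASO library lies under each CTRL library, while on the most distal Dgat2 segment the groups overlap.

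Other genes of droplets, lipolysis, triglyceride synthesis and fatty acid sensing were taken from lists of 78 genes, of which 55 were tested. Of these, 3 rose (5.45%, against 11.7% of all features), 15 fell in ASO (27.3%, against 17.5%) and 37 did not pass. Their log2 fold changes had a median of −0.20. Without CTRL replicate 3, 2 of those 3 and 13 of those 15 were still called. In 6 of the 15 that fell, at least 90% of the counts lie 1000 bp or more upstream of the last segment.

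For droplet coat and size, 1 of 15 tested genes rose and 4 fell, with a median of −0.40. Fitm1, which partitions new fat into droplets and is a muscle form of its family, rose with a log2 fold change of 1.05 (SE 0.26, adjusted p = 0.00917), from 67.6 ± 23.7 to 140 ± 31.4 CPM (SD, n = 5 each) without overlap. It has no count far upstream, and on its most distal segment alone it was at 0.77 (SE 0.23, adjusted p = 0.0547), short of the threshold. Rab18, a small GTPase on droplets, fell with −2.05 (adjusted p = 0.000474), Snap23, a SNARE protein of droplet fusion, with −1.97 (adjusted p = 0.000344) and Ldah, a droplet-associated hydrolase, with −1.41 (adjusted p = 0.00233). Of their counts 97.8% in Rab18, 100% in Snap23 and 23.3% in Ldah lie far upstream, and none of these genes has a value on its most distal segment. Pcyt1a, which makes phosphatidylcholine for the droplet surface, was at −0.28 (adjusted p = 0.124).

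For lipolysis and its control, 2 of 14 rose and 4 fell, with a median of −0.08. Prkaca, the catalytic subunit of the kinase that phosphorylates perilipins and hormone-sensitive lipase, rose with 0.43 (SE 0.13, adjusted p = 0.0235), from 472 ± 31.0 to 636 ± 76.9 CPM without overlap. Pde4d, which degrades the cAMP that drives this kinase, fell with −2.60 (SE 0.31, adjusted p = 0.000187), and with −3.16 (adjusted p = 0.00112) on its most distal segment. Cav1, the caveolae protein abundant in fat and endothelial cells, fell with −2.03 (SE 0.49, adjusted p = 0.00915), and with −1.27 (adjusted p = 0.00806) without CTRL replicate 3. Of its counts 67.8% lie far upstream, and it has no value on its most distal segment. Pnpla8, a phospholipase of the ATGL family, fell with −0.56 (adjusted p = 0.0215), with 98.5% of its counts far upstream. Lpl, which releases fatty acids from lipoproteins at the vessel wall, was at −0.68 (adjusted p = 0.199).

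For triglyceride synthesis, 0 of 15 rose and 4 fell, with a median of −0.27. Gpam, which starts synthesis from glycerol phosphate, fell with −0.95 (SE 0.19, adjusted p = 0.00348), from 1019 ± 249 to 526.5 ± 100.1 CPM. Of its counts 33.4% lie far upstream, and it has no value on its most distal segment. Acsl1, which activates long-chain fatty acids, fell with −1.11 (SE 0.22, adjusted p = 0.00276), and was at −0.65 (SE 0.23, adjusted p = 0.0913) on its most distal segment. Lpin1, the phosphatidate phosphatase whose product is the substrate of the DGAT enzymes, fell with −1.50 (adjusted p = 0.000467), with 98.3% of its counts far upstream. Plpp3, a lipid phosphate phosphatase, fell with −0.83 (SE 0.21, adjusted p = 0.0113) with no count far upstream, and with −1.12 (adjusted p = 0.00649) on its most distal segment. The groups did not overlap in any of these 4 genes, which were picked because they were called. Over all tested features, 21.4% had no overlap. Gpd1, which supplies glycerol phosphate, was at −0.32 (adjusted p = 0.366).

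Of the nuclear receptors of fatty acids and their known targets, 0 of 11 rose and 3 fell, with a median of −0.04. Ppara, the receptor that turns on fatty acid oxidation genes, fell with −3.41 (SE 0.61, adjusted p = 0.00175), from 23.1 ± 15.0 to 2.08 ± 1.59 CPM (SD, n = 5 each), near the level of 3 counts in a library, with 30.6% of its counts far upstream and no value on its most distal segment. Hadhb, a subunit of the mitochondrial trifunctional protein, fell with −2.15 (adjusted p = 0.000198), with 98.4% of its counts far upstream. The third, Cpt1b, which carries fatty acids into mitochondria and is named outside the rule after its value was seen, fell with −0.60 (adjusted p = 0.0428), with 100% of its counts far upstream. Of the targets that were not called, Pdk4 was at 0.16 (adjusted p = 0.711) and Ucp3 at 0.42 (adjusted p = 0.276). Rxra, the partner receptor, was at 0.33 (adjusted p = 0.183).

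**Figure D5:**
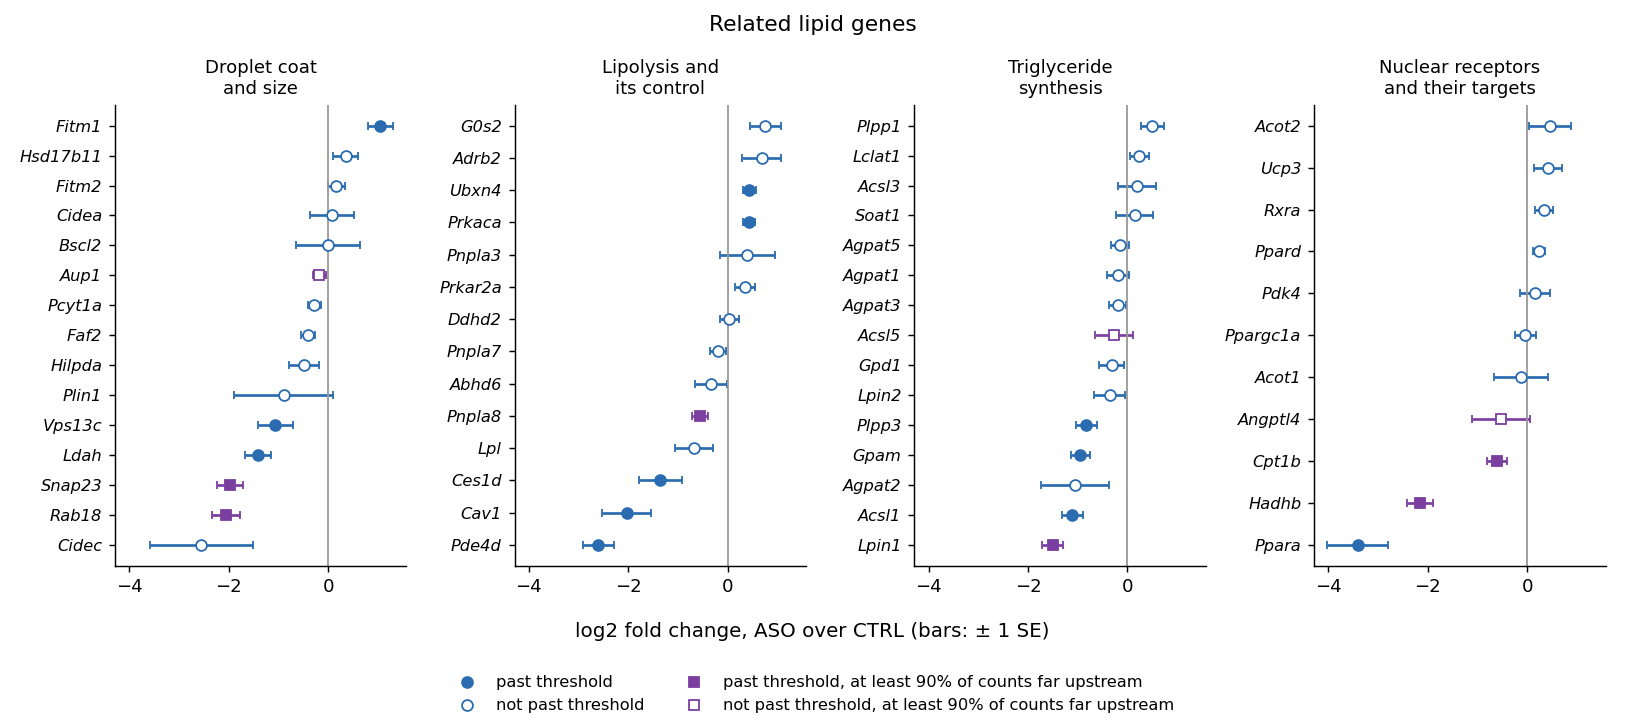
Log2 fold change of ASO over CTRL with bars of 1 SE for the tested genes of each of the 4 related lists, where filled symbols passed the threshold and squares mark genes with at least 90% of their counts 1000 bp or more upstream. Fitm1, at 1.05, is the highest filled point, and Ppara, at −3.41, the lowest.

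Markers of other cell types were read in the same way. Of 7 tested macrophage markers 2 fell, Mrc1 with −1.51 (adjusted p = 0.0359) and C1qc with −1.61 (adjusted p = 0.0461), and neither was called without CTRL replicate 3, 4 or 5 or without ASO replicate 1, 3 or 5 (for Mrc1 also ASO replicate 2, for C1qc also ASO replicate 4). Without CTRL replicate 3 they were at −0.92 (adjusted p = 0.101) and −1.04 (adjusted p = 0.13). Their summed level was 1834 CPM in CTRL replicate 3, 294 to 686 CPM in the other CTRL libraries and 79.1 to 617 CPM in ASO, while Adgre1, Cd163 and Ctss are at 0. Lyz2 was at 836 CPM in CTRL replicate 3 and 135 to 303 CPM in the other CTRL libraries, and C1qa had a log2 fold change of −0.57 (adjusted p = 0.427). Of 4 tested muscle fiber genes Actn3 rose with 1.79 (adjusted p = 0.00147) and Ckm with 0.93 (adjusted p = 0.0107). Of the Ckm counts 97.6% lie far upstream, and on its most distal segment alone Ckm was at −0.07 (edgeR adjusted p = 0.867). The summed level of the list was 40280 to 79151 CPM in CTRL, lowest in replicate 3, and 83984 to 129009 CPM in ASO. Of 7 slow fiber genes Myl6b rose with 1.72 (adjusted p = 0.0368), with 191 CPM in ASO replicate 4 and 28.5 to 37.8 CPM in the other ASO libraries. The call was lost without CTRL replicate 1, 2, 3 or 5 (adjusted p = 0.0556, 0.0705, 0.0646 and 0.0845) and without ASO replicate 4 (0.71, adjusted p = 0.0556). The summed level spread from 57.3 to 7897 CPM within ASO and from 91.9 to 2552 CPM within CTRL. Tnnc1, Myl2 and Tpm3, the slow genes with the highest levels, were at 0.74, 1.70 and 1.24 (adjusted p = 0.72, 0.338 and 0.501 from edgeR). Of 6 endothelial genes none was called: Cdh5 was at 0.36 (adjusted p = 0.31), Kdr at 0.46 (adjusted p = 0.24) and Cldn5 at −0.13 (adjusted p = 0.739). The part of these cell types in the members' changes was not tested.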

How the data were processed

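The authors deposited raw counts per transcript segment, made by trimming with fastp, alignment by STAR (GRCm39) and read-pair counting by featureCounts (Gencode M25) over the final 500 bp of each 3′UTR; the strand option is not given in the sources used here. The columns of 5 CTRL and 5 ASO libraries were used, and 4 other per-sample columns were not. Of 52423 segments, 52361 were matched to a gene of GENCODE M39 by transcript, and segments were summed per gene. The main test was edgeR 4.0.16 in R 4.3.3 (TMM, filterByExpr, quasi-likelihood test, Benjamini-Hochberg, threshold 0.05); DESeq2 1.42.0 and limma-voom (limma 3.58.1) were alternatives, as were RLE, total-count and upper-quartile scaling, no filter, a filter of 10 counts in every library, a replicate block, leaving out each library, the most distal segment alone and equal depth. A marker covariate and a fit of each segment were chosen after seeing the data. So were leaving out CTRL 3 with ASO 4 and the permutation tests of segment shares. Single values were compared by exact permutation of the library labels (two-sided), whose smallest p is 0.00794.

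The members and lists were chosen with earlier results of these data known. All members are named, and of the related genes up to 14 past the threshold by smallest adjusted p and 6 others by highest mean level, and of each marker list (adipocyte, macrophage, muscle fiber, slow fiber, endothelial) those past the threshold and the 3 highest. Coordinates are 1-based on GRCm39 except for the miRNA. Distances upstream are in genomic bases, introns included. On counts simulated for ASO against CTRL, edgeR recovered 50 of 99 genes changed by 1 and 89 of 92 changed by 2 on the log2 scale, among 7895 tested, with 6 false calls. Floors cover counting error only. SEs and p-values take in the spread between the mice of these groups, and ± marks an SD between libraries.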

Additional observations from a re-analysis of the deposited data

Results flagged for a closer look

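In groups of 5 libraries, a value far from the other 4 was found in 6 of 18 groups of values examined (7 members and 2 marker lists, in CTRL and in ASO), where chance gives about 1 in 20. All 6 are CTRL replicate 3, so they are not independent, and the rate of chance does not apply to them as a set. It was at 448 CPM for Plin2, at 591 CPM for Lipe, at 363 CPM for Mgll and at 1868 CPM for Dgat2, and its summed level was 14408 CPM for the adipocyte markers and 1834 CPM for the macrophage markers. Pnpla2, Abhd5 and Dgat1 were also highest in that library but did not stand apart by this measure, and no ASO library did for these values.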

How the results depend on the processing

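The number of members called lower was 1. It became 0 with upper quartile scaling, with limma-voom and with CTRL 3 and ASO 4, the farthest libraries of their groups, left out together, 2 with the adipocyte marker level as a covariate, and 0 to 2 with 1 library left out. On the most distal segment alone it was also 0, but only 3 members had a value there and Abhd5 had none, so this says nothing of its call. Abhd5 was below 0 in every setting that gave it a value. With the replicate number as a block, 0 members were called lower (Abhd5 at −0.66). The labels do not say whether equal numbers pair the mice. The deviations of same-numbered libraries correlated at −0.43 to 0.17, which cannot settle it. Dgat1 turned positive with RLE size factors (0.002), upper quartile (0.066), no filter (0.011), DESeq2 (0.017), limma-voom (0.24), the replicate block (0.20), libraries drawn down to equal depth (0.012), the covariate (0.20, and 0.40 without CTRL 3) and CTRL 3 and ASO 4 left out (0.56), and lay between −0.23 and 0.57 with 1 library left out. Plin2 lay between −1.14 and 0.10 with 1 library left out and at 0.012 without CTRL 3 and ASO 4. Over all features, 916 were higher and 1365 lower, against 540 and 1815 with total counts, which moved the median over all features from −0.03 to −0.20, 1261 and 1207 with upper quartile, and 232 and 338 on the most distal segment alone, where fewer features were tested. Of the related lipid genes, 3 were higher, against 1 with total counts, with no filter and on the most distal segment, and 1 to 4 with 1 library left out, while 15 were lower, against 3 on the most distal segment, where most of them had no value, and 11 to 15 with 1 library left out. The causes were not tested. The fewest counts among tested members are the 484 of Pnpla2, and the 33 of Plin3 were under the filter.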

Other observations

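Ratios of members within a library, which no scaling of libraries changes, are given as counts over counts with no test. They are not free of the shift between distal and upstream segments where the share of counts far upstream differs. That share was 100% in Abhd5, 99.3% in Lipe and 0% in Pnpla2, and 17.7% in Dgat2 and 0% in Dgat1. Dgat2 to Dgat1 was at 8.57 to 30.8 in CTRL (median 16.7) and 5.35 to 14.1 in ASO (median 8.13). Abhd5 to Pnpla2 was at 4.33 to 6.91 in CTRL and 3.22 to 4.68 in ASO. Lipe to Pnpla2 was at 2.13 to 13.2 in CTRL and 2.39 to 5.21 in ASO, and the highest was CTRL replicate 3. Mgll to Lipe, the last lipase over the one before it, was at 0.43 to 1.12 in CTRL and 0.50 to 1.94 in ASO. The groups overlapped in each of the 4. Ratios with Plin5 have no value, since Plin5 is at 0.

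Of genes outside the rule for named genes, chosen after their values were seen, Ubxn4 rose with a log2 fold change of 0.44 (edgeR adjusted p = 0.028), and Ces1d and Vps13c fell with −1.36 and −1.06 (adjusted p = 0.0317 and 0.0396). On the most distal segment alone Ubxn4 was at 0.15 (SE 0.12, edgeR adjusted p = 0.454), not past the threshold. Ces1d was at −1.65 there (edgeR adjusted p = 0.0413), and Vps13c had no value. With CTRL replicate 3 left out, Cpt1b was still called (adjusted p = 0.0191), while Ubxn4, Ces1d and Vps13c were at adjusted p = 0.0626, 0.0776 and 0.0703. G0s2, the inhibitor of ATGL, was at 0.76 (adjusted p = 0.0866) with all libraries and at 0.98 (SE 0.30, adjusted p = 0.0331), past the threshold, without CTRL replicate 3.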
